A study of Mus musculus with 14 samples.

Results

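Pf4, Ppbp, Itga2b, Gp1ba, Gp1bb, Gp9 and Treml1 are genes of megakaryocytes, the large marrow cells that shed platelets, and they are followed here in RNA from mouse tibia. They were chosen by symbol from the deposited count table, in which all 7 were found among 55291 symbols, and all 7 passed the filter on low counts that left 21761 genes. The mice were wild-type C57Bl/6 females in 5 groups, and the labels give no age and no dose. Ovariectomized (OVX) mice, which lose their ovarian sex steroids, received zoledronic acid (OVX-ZA, n = 3), 3'(3'hydroxyphenyl) propionic acid (OVX-PPA, n = 2), hippuric acid (OVX-HA, n = 3) or PBS (OVX-PBS, n = 3), and a sham-operated group (sham, n = 3) kept its ovaries. Treatment began 2 to 4 days after surgery and lasted 8 weeks. Zoledronic acid is a bisphosphonate that blocks bone resorption by osteoclasts, hippuric acid is benzoylglycine, and PBS is the saline vehicle. Whether each library came from a separate animal is not stated, so p-values measure the spread between these samples, which may be technical.

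Megakaryocytes mature in the marrow next to sinusoids and extend long processes into the blood, from which platelets break off. Platelets have no nucleus and carry RNA made by the megakaryocyte, so in whole bone the genes below report on both. During maturation the cell fills alpha granules with chemokines and clotting proteins and coats its surface with adhesion receptors. Among these are the fibrinogen receptor, an integrin of the Itga2b and Itgb3 chains, and the von Willebrand factor receptor, a complex of the products of Gp1ba, Gp1bb, Gp9 and Gp5. GATA, ETS and RUNX transcription factors drive many of these genes.

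Depth, in units of 1000000 estimated counts per library, was 11.9 to 25.1 in OVX-ZA, 18.7 to 29.7 in OVX-PPA, 31.3 to 35.4 in OVX-HA, 20.1 to 35.2 in OVX-PBS and 29.2 to 32.6 in sham. The 7 genes together held 4043 to 6435 estimated counts per library in OVX-ZA, 4282 to 13050 in OVX-PPA, 8333 to 16724 in OVX-HA, 6296 to 14595 in OVX-PBS, and 7308 to 16592 in sham. The smallest count of any of the 7 genes was 147 (Gp1bb in OVX-ZA replicate 1). OVX-HA replicate 2 and OVX-PBS replicate 1 stood apart by transcripts of nervous tissue. The mean of 5 nervous system markers was 1.92 and 2.28 log2 CPM in these libraries, and 6.39 to 7.96 in the other 12. For the 7 genes, values are given with and without both in the comparisons described one by one below and in the correlations.

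Beside the group of genes, 35 other megakaryocyte and platelet genes and the megakaryocyte growth factor gene Thpo were followed. This list was drawn up from general knowledge. All 36 passed the filter. The 5 muscle markers and the 5 nervous system markers passed it too, so passing does not test the label of the group. The lowest value of the 36 in any library was 2.66 CPM, of Thpo (CPM are counts per 1000000 counts of the library, after TMM scaling). The integrin chain Itgb3, partner of Itga2b, read 75.4 to 153 CPM, and the von Willebrand factor receptor subunit Gp5 read 13.6 to 28.0 CPM.

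The proximal promoters of 4 of the genes are shown because the genes moved together from library to library, as described below, and because these windows hold the searched motifs. Each window runs from 250 bases before to 50 bases after the start of the gene (RefSeq, GRCm38.p6), and RefSeq gave a window for all 7. For Itga2b the GENCODE gene begins farther upstream, at 102470122 on the - strand, so most of its RefSeq window lies inside the GENCODE gene. Capitals mark matches on either strand. TGATAA was searched as a word that GATA factors bind, and AGATAA as another. For ETS factors the letters were AGGAAG. The word for RUNX factors was TGTGGT, and no matches overlapped. The windows are chr11:70638872-70639171 (+ strand) for Gp1ba, chr5:90772185-90772484 (+ strand) for Pf4, chr11:102469834-102470133 (- strand) for Itga2b and chr6:87777820-87778119 (+ strand) for Gp9.
Gp1ba: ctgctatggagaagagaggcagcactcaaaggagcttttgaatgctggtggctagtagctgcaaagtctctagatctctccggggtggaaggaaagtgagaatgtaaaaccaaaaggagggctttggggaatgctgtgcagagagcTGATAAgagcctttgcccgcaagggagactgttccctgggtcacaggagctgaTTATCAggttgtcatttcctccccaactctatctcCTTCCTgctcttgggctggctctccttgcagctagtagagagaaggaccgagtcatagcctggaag
Pf4: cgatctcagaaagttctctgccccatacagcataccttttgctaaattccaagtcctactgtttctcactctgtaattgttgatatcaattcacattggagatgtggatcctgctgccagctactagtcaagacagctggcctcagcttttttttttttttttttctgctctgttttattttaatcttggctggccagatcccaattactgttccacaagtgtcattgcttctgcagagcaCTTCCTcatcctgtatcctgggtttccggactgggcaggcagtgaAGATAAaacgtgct
Itga2b: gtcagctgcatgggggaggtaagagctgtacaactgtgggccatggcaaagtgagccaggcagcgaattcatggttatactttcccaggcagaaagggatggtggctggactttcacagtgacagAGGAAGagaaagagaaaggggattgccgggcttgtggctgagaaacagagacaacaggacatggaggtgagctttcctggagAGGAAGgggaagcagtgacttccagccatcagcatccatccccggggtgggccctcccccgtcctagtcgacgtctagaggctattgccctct
Gp9: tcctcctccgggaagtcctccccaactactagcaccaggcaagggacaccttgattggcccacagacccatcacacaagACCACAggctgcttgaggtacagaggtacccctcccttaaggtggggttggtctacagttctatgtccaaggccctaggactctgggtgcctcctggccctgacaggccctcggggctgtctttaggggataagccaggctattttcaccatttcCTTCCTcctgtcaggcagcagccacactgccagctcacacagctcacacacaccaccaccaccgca
A match to AGGAAG was found in 5 of the 7 windows, against 35.4% of all 32851 promoter windows of this length. Among these is the window of Gp1bb, with its match 21 bases after the start, which is not shown. A GATA word was found in 2 of the 7, in Gp1ba at 104 and 51 bases before the start and in Pf4 at 37 bases after it, against 18.6% of all windows. TGTGGT was found in Gp9 alone, against 16.8% of all windows. The windows of Ppbp and Treml1 held none of these words, which says only that these letters are not in these windows.

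Granule chemokines gave the highest levels. Ppbp, the precursor of platelet basic protein and a chemokine for neutrophils, and Pf4, platelet factor 4, lie 2372 bases apart on the + strand of chromosome 5 (mm10, Ppbp at 90768518-90770063 and Pf4 at 90772435-90773383). Per kb of exon Ppbp averaged 125 ± 37.1 CPM and Pf4 67.7 ± 16.2 (SD over 14 libraries), and Ppbp was above Pf4 in all 14. The surface genes were lower, with Itga2b at 15.5 ± 4.84 CPM per kb, Gp9 at 14.2 ± 4.76, Treml1 at 10.2 ± 2.84, Gp1ba at 6.60 ± 1.97 and Gp1bb at 5.96 ± 1.82. Within a library, Itga2b exceeded Gp9 by 1.31 ± 1.15 CPM per kb on average (SD over 14 libraries) and was the higher in 12 of 14. Gp1ba exceeded Gp1bb by 0.645 ± 1.47 CPM per kb, less than the spread between libraries, and was the higher in 9 of 14. Each of the other neighbours in this order was above the next in all 14. Exon length here is that of all annotated exons of a gene, merged. The order depends on these lengths and, for Gp1bb, on how reads shared with Septin5 were split, as described below.

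Ppbp read 149.8, 127 and 109 CPM in OVX-ZA, 83.0 and 208 in OVX-PPA, 91.2, 165 and 119.8 in OVX-HA, 132, 107 and 179 in OVX-PBS, and 118, 203 and 100.5 in sham, for replicates in order of their number. The groups overlapped, and the lowest and the highest library of all 14 were both OVX-PPA. Pf4 read 51.6, 45.0 and 38.5 CPM in OVX-ZA, 38.3 and 55.9 in OVX-PPA, 34.4, 73.9 and 42.8 in OVX-HA, 56.7, 46.0 and 48.5 in OVX-PBS, and 47.2, 68.4 and 36.1 in sham. Here OVX-HA held both extremes, 2.15-fold apart.

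Itga2b, the integrin alpha chain that appears early in the lineage (chromosome 11, 102453297-102470122, - strand), read 75.5, 66.8 and 64.6 CPM in OVX-ZA, 68.9 and 89.6 in OVX-PPA, 62.9, 159 and 67.4 in OVX-HA, 108, 72.8 and 95.02 in OVX-PBS, and 70.3, 109.6 and 75.8 in sham. OVX-HA replicate 2 stood above all others and the 2 other OVX-HA libraries were among the 4 lowest. Treml1, a receptor stored in platelet granule membranes (chromosome 17, 48359916-48367176, + strand), read 14.8, 11.3 and 11.1 CPM in OVX-ZA, 11.4 and 17.7 in OVX-PPA, 10.5, 24.2 and 11.8 in OVX-HA, 16.0, 12.5 and 14.9 in OVX-PBS, and 11.96, 20.2 and 12.8 in sham. It was likewise highest in OVX-HA replicate 2 and lowest in OVX-HA replicate 1.

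Of the von Willebrand factor receptor, Gp1ba encodes the chain that binds the ligand (chromosome 11, 70639122-70642036, + strand). It read 16.99, 14.6 and 13.4 CPM in OVX-ZA, 12.3 and 25.7 in OVX-PPA, 13.8, 23.8 and 18.2 in OVX-HA, 16.1, 12.4 and 23.9 in OVX-PBS, and 16.8, 28.7 and 14.6 in sham. Its order of libraries was close to that of Ppbp, with sham replicate 2 and OVX-PPA replicate 2 on top. Gp9, a small leucine-rich chain needed for the complex to reach the surface (chromosome 6, 87778072-87779768, + strand), read 12.7, 10.8 and 8.87 CPM in OVX-ZA, 9.12 and 13.5 in OVX-PPA, 8.15, 22.8 and 9.11 in OVX-HA, 16.0, 11.1 and 14.2 in OVX-PBS, and 9.45, 18.4 and 11.2 in sham. OVX-HA again held its highest and its lowest library, 2.80-fold apart.

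Gp1bb, the chain that is linked to Gp1ba by disulfide bonds, read 12.1, 12.02 and 9.12 CPM in OVX-ZA, 9.44 and 12.4 in OVX-PPA, 7.06, 21.1 and 10.5 in OVX-HA, 15.4, 10.8 and 13.6 in OVX-PBS, and 9.42, 18.6 and 12.5 in sham. Its counts are uncertain, because 1902 bases of its 2.087 kb of exon (chromosome 16, 18620317-18622403, - strand) are also exons of Septin5, listed as Sept5 in the annotation and read from the same strand. The predicted gene Gm49601 overlaps it as well, by 867 bases. Septin5, a septin abundant in neurons, read 37.9 to 82.8 CPM. Across the 14 libraries Gp1bb did not track it (Pearson r = -0.06, Spearman rho = -0.16, a description), and in OVX-PBS replicate 1, where Septin5 was lowest, Gp1bb was higher than in all but 2 libraries. In OVX-HA replicate 2, also low in nervous tissue transcripts, Septin5 read 54.3 CPM. Both counts depend on how shared reads were split, which is not stated, so the lack of correlation does not settle the counts of Gp1bb. The ratio of Gp9 to Gp1bb stayed between 0.866 and 1.16 in all libraries.

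**Figure D1:**
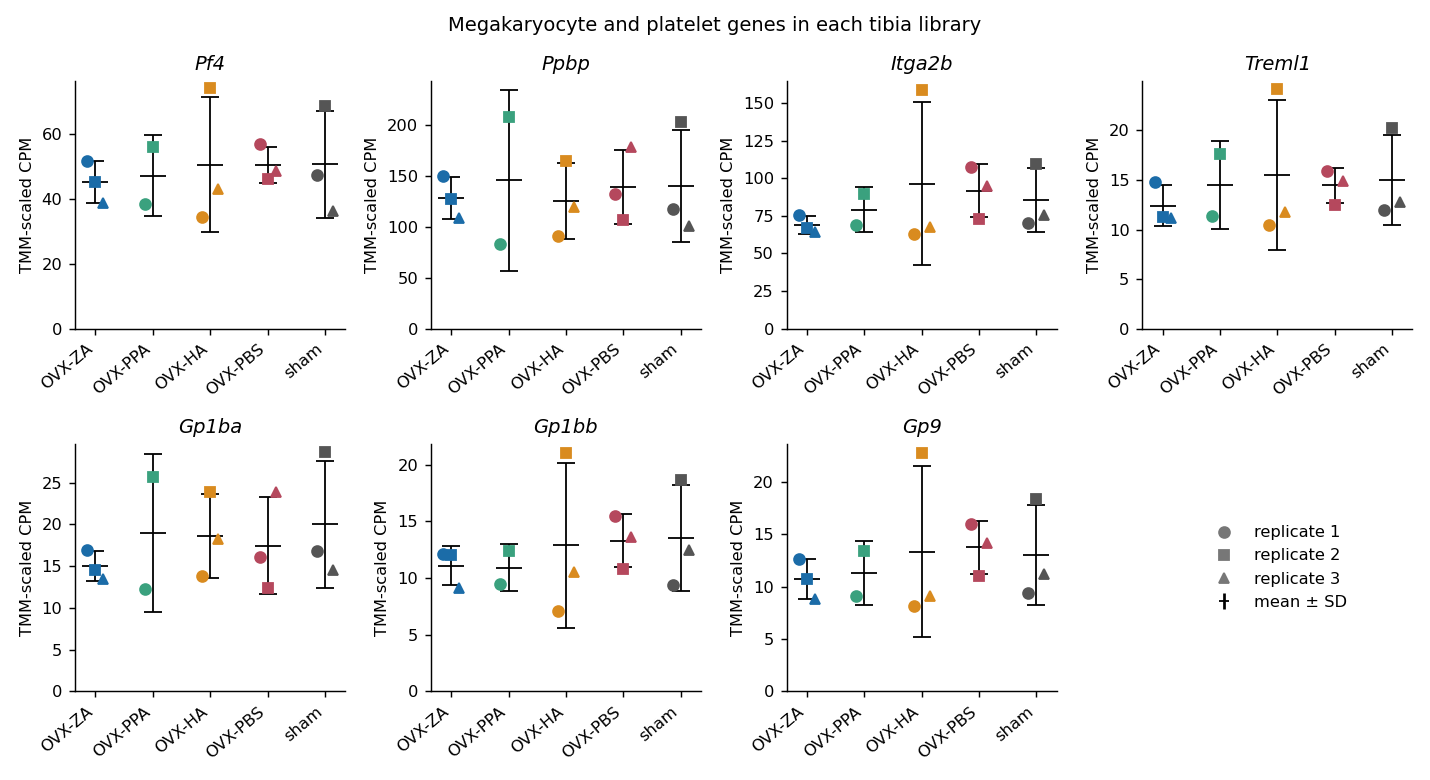
TMM-scaled CPM (linear axis from 0) of the 7 genes in every library, by group, with the group mean ± SD as a bar and the replicate number as the marker shape. Groups overlap in each panel, and OVX-HA replicate 2 is the highest library for Pf4, Itga2b, Treml1, Gp1bb and Gp9.

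Did zoledronic acid alter these genes after ovariectomy? All 7 genes averaged lower in OVX-ZA than in OVX-PBS, by 0.11 to 0.41 on the log2 scale, and none passed the test. The largest difference was that of Itga2b, which averaged 68.9 ± 5.76 CPM in OVX-ZA and 91.9 ± 17.7 in OVX-PBS (SD, n = 3 each; log2 difference -0.41 ± 0.315, 95% interval -1.10 to 0.27, adjusted p = 0.899). Gp9 averaged 10.8 ± 1.91 CPM against 13.8 ± 2.51 (-0.36), Gp1bb 11.1 ± 1.71 against 13.3 ± 2.35 (-0.26), Gp1ba 15.0 ± 1.83 against 17.5 ± 5.87 (-0.23) and Treml1 12.4 ± 2.05 against 14.5 ± 1.76 (-0.22). For the chemokines the differences were -0.16 (Pf4) and -0.11 (Ppbp, interval -0.89 to 0.66). Tests throughout are edgeR quasi-likelihood fits over all 21761 genes with Benjamini-Hochberg adjustment. In this comparison 0 of the 7 genes were called, where 0% of all genes were, and 0 had an unadjusted p under 0.05, where 3.36% of all genes had. DESeq2 also called 0 of the 7, and 0.147% of all genes. The 2 groups overlapped in each of the 7 genes, whereas 14.2% of all genes did not overlap.

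The median difference of the 7 genes was -0.23, beside -0.17 in the other 36 megakaryocyte and platelet genes and -0.04 over all genes tested. In that wider list 31 of 36 genes were below 0, beside 12228 of 21761 genes tested, and 0 were called. By edgeR 0 of the 36 had an unadjusted p under 0.05, by DESeq2 2 did and 0 were called. Among the lower genes the 3 smallest p belonged to transcription factors that red cell precursors use too. Zfpm1, the cofactor FOG-1, averaged 54.5 ± 1.04 CPM in OVX-ZA and 88.9 ± 24.1 in OVX-PBS (-0.71, unadjusted p = 0.051, edgeR quasi-likelihood), Gata1 27.5 ± 2.10 against 43.9 ± 11.9 (-0.67) and Tal1 63.9 ± 3.90 against 99.7 ± 29.7 (-0.64). Higher was P2ry12, an ADP receptor of platelets and of microglia in brain, at 8.63 ± 0.243 against 6.32 ± 0.759 CPM (0.45, unadjusted p = 0.060, edgeR quasi-likelihood). Here and below, differences of single genes of the wider list are given only with the libraries low in nervous tissue transcripts included. Of those, OVX-PBS replicate 1 is in this comparison, and it had the highest erythroid marker mean of the 2 groups (8.49 log2 CPM). In the wider list 6 genes were lower and 1 higher without overlap, where 9.96% of all genes were lower and 4.21% higher. The 10 erythroid markers, none of them at 0, summed to 5953 to 6530 CPM in OVX-ZA and 8422 to 11348 in OVX-PBS, and their part in these differences was not tested. Without OVX-PBS replicate 3 the difference turned to 0.16 for Gp1ba and to 0.20 for Ppbp. Without both libraries low in nervous tissue transcripts, of which OVX-PBS replicate 1 is in this comparison, the difference was -0.269 for Itga2b, -0.224 for Gp9, -0.130 for Gp1bb, -0.138 for Treml1 and -0.0545 for Pf4, all smaller by over 1.5 times. It was -0.272 for Gp1ba and -0.137 for Ppbp.

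Did ovariectomy itself alter them? Between OVX-PBS and sham the 7 genes differed by -0.20 (Gp1ba) to 0.11 (Itga2b), with a median of -0.01 beside 0.01 over all genes. Pf4 had a mean of 50.4 ± 5.57 CPM over the OVX-PBS libraries and of 50.6 ± 16.4 over the sham libraries (log2 difference -0.01, 95% interval -0.63 to 0.61), and Ppbp 139 ± 36.6 against 141 ± 55.0 (-0.01, -0.79 to 0.76). Without both libraries low in nervous tissue transcripts the differences ran from -0.118 (Gp1bb) to 0.0528 (Ppbp), with Itga2b at 0.00378 and Gp9 at -0.0178. Of the 7 genes 0 were called, where 0% of all genes were, 0 had an unadjusted p under 0.05 (2.73% of all genes), and DESeq2 called 0 (0.0046% of all genes). In all 7 the groups overlapped, as they did in all but 7.63% of genes. In the wider list 22 of 36 genes were above 0 and 0 were called, with 0 at an unadjusted p under 0.05 by either tool. The smallest p values in it belonged to P2ry12 (-0.35) and the homeobox gene Meis1 (-0.21), both lower in OVX-PBS, and to P2ry1, an ADP receptor (0.17), higher.

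With hippuric acid the group means lay close to those of PBS, and in Pf4, Itga2b, Treml1, Gp1bb and Gp9 the libraries spread more widely than in any other group. Itga2b had a mean of 96.4 ± 54.1 CPM over the OVX-HA libraries and of 91.9 ± 17.7 over those of OVX-PBS (log2 difference 0.07, 95% interval -0.61 to 0.75), Pf4 50.4 ± 20.8 against 50.4 ± 5.57 (0.0009) and Ppbp 125 ± 37.1 against 139 ± 36.6 (-0.15). Of the others Treml1 differed by 0.10, Gp1ba by 0.09, and Gp9 and Gp1bb by -0.04 each. Without OVX-HA replicate 2 and OVX-PBS replicate 1, the libraries low in nervous tissue transcripts, all 7 differences were negative and none passed. There the difference was -0.585 for Gp9, -0.512 for Gp1bb, -0.472 for Ppbp, -0.399 for Itga2b, -0.335 for Treml1, -0.324 for Pf4 and -0.221 for Gp1ba. Of the 7 genes 0 were called (0% of all genes), 0 had an unadjusted p under 0.05 (1.47% of all genes), DESeq2 called 0 (0% of all genes) and all overlapped between groups (4.08% of all genes did not). Of the wider list 17 of 36 genes were above 0 and 0 were called, and 0 had an unadjusted p under 0.05 by edgeR or DESeq2. Meis1 (0.24) and P2ry12 (0.26) were those with the smallest p among the higher, Thpo (-0.19) and the granule adhesion molecule Selp (-0.26) among the lower.

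With 3'(3'hydroxyphenyl) propionic acid the 2 libraries lay far apart. Ppbp averaged 146 ± 88.7 CPM in OVX-PPA (n = 2) and 139 ± 36.6 in OVX-PBS (n = 3; log2 difference 0.07, 95% interval -0.80 to 0.93). Gp1ba averaged 19.0 ± 9.45 CPM against 17.5 ± 5.87 (0.12), Treml1 14.5 ± 4.44 against 14.5 ± 1.76 (0.01) and Pf4 47.1 ± 12.5 against 50.4 ± 5.57 (-0.10). Itga2b (-0.21), Gp9 (-0.28) and Gp1bb (-0.28) were lower on average, and none passed. Without both libraries low in nervous tissue transcripts the difference was -0.0782 for Itga2b, -0.152 for Gp9, -0.155 for Gp1bb, 0.00319 for Pf4, 0.0972 for Treml1, 0.0782 for Gp1ba and 0.0390 for Ppbp. Of the 7 genes 0 were called (0% of all genes), 0 had an unadjusted p under 0.05 (1.87% of all genes), DESeq2 called 0 (0% of all genes) and all overlapped, where 20.4% of all genes did not. In the wider list 18 of 36 genes were above 0 and 0 were called or had an unadjusted p under 0.05 by either tool, with Meis1 (0.28) and P2ry12 (0.39) again at the smallest p. The 4 comparisons that involve OVX-PBS, that with sham included, share its libraries, so the values of Meis1 and P2ry12 in them are not independent of each other.

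Hippuric acid joins its ring to glycine through an amide, whereas 3'(3'hydroxyphenyl) propionic acid has a ring hydroxyl and a propionic acid chain. Both were given for 8 weeks, and as their doses are not given the values stand side by side. In this pair of acids 5 of the 7 genes were above 0 in OVX-HA over OVX-PPA, with differences of -0.22 (Ppbp) to 0.28 (Itga2b) on the log2 scale. The interval was -1.08 to 0.64 for Ppbp and -0.49 to 1.05 for Itga2b. Of the 7 genes 0 were called (0% of all genes), 0 had an unadjusted p under 0.05 (1.19% of all genes), DESeq2 called 0 (0% of all genes) and all overlapped (10.3% of all genes did not). Without both libraries low in nervous tissue transcripts the differences turned to -0.32 for Itga2b, -0.33 for Pf4, -0.36 for Gp1bb, and -0.43 for Gp9 and Treml1, and were -0.51 for Ppbp and -0.30 for Gp1ba. In all, 10 pairs of groups were compared.

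In the other 5 comparisons edgeR called 0 of the 7 genes, 0 had an unadjusted p under 0.05, and DESeq2 called 0. The shares of all genes called by edgeR and DESeq2 were 0% and 0% for OVX-HA over sham, 0% and 0% for OVX-PPA over sham, and 0% and 0.0689% for OVX-ZA over sham. They were 0.0046% and 0.133% for OVX-ZA over OVX-HA and 0% and 0.0643% for OVX-ZA over OVX-PPA. Unadjusted p values under 0.05 were had by 1.74%, 1.82%, 2.79%, 3.77% and 2.06% of all genes in the same order. Against sham the OVX-ZA values of all 7 genes were lower on average, by 0.13 to 0.42 on the log2 scale, and against OVX-HA 6 of 7 were, Itga2b the most at -0.48 (unadjusted p = 0.150, edgeR quasi-likelihood). Of all 21761 genes tested, 13207 were below 0 against sham and 12881 against OVX-HA. The 7 genes correlate, as described below, so their directions are not separate results. Sham replicate 2 was the highest sham library in each of the 7. For Ppbp it read 203 CPM, and sham replicates 1 and 3 read 118 and 100.5, both below the OVX-ZA mean of 129. For Itga2b sham replicates 1 and 3 read 70.3 and 75.8 CPM, both above the OVX-ZA mean of 68.9. No difference without sham replicate 2 is given here for OVX-ZA over sham. In OVX-HA, Itga2b read 159 CPM in replicate 2 and 62.9 and 67.4 in replicates 1 and 3. The latter 2 values are both below the OVX-ZA mean of 68.9, so the lower average of OVX-ZA rests on OVX-HA replicate 2. No difference without OVX-HA replicate 2 is given here for OVX-ZA over OVX-HA.

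**Figure D2:**
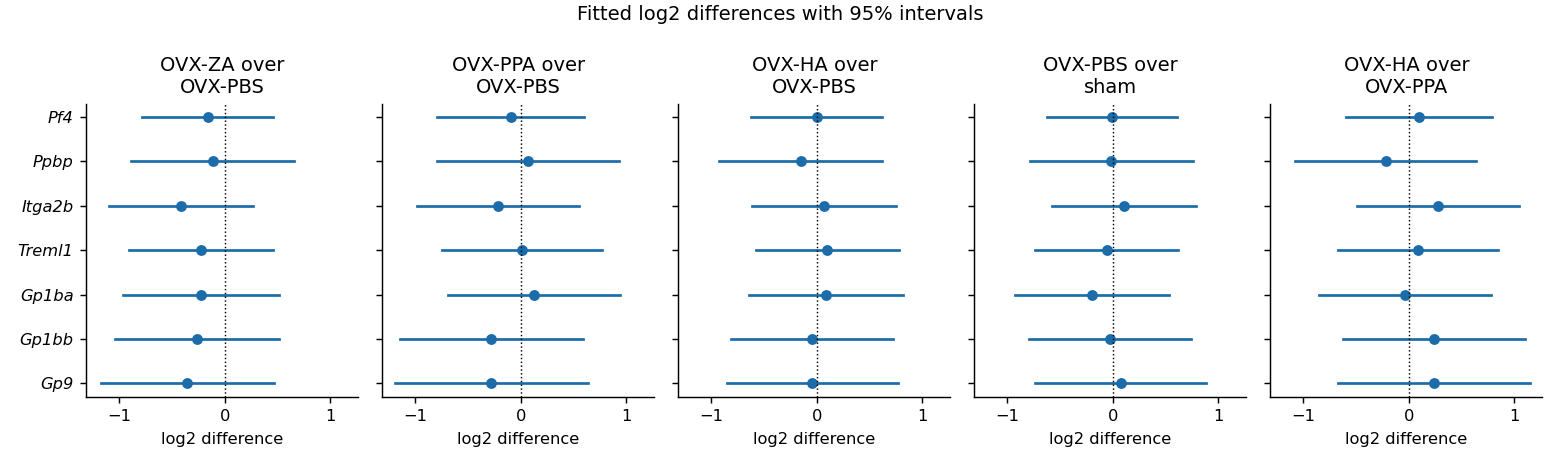
Fitted log2 differences of the 7 genes (points) with 95% intervals (lines) in 5 comparisons, each with the group named first over the other, on 1 shared axis; the dotted line marks 0. Every interval crosses 0, and in OVX-ZA over OVX-PBS all 7 points lie below it.

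Libraries of one group differed more in these genes than in most others. Their SD within groups was 0.39 (Pf4) to 0.50 (Gp9) on the log2 CPM scale, with a median of 0.46, beside 0.29 over all genes tested and 0.22 over the 15833 genes of at least 2 mean CPM. The 7 genes shared it. In the mean of their log2 CPM the libraries ran from 5.57 in OVX-HA replicate 2, 5.45 in sham replicate 2, 5.17 in OVX-PPA replicate 2 and 5.11 in OVX-PBS replicate 3 down to 4.52 in OVX-ZA replicate 3, 4.48 in OVX-PPA replicate 1 and 4.38 in OVX-HA replicate 1. In the 4 highest of these all 7 genes were above their own mean, and in the 3 lowest 0 were. The 3 OVX-ZA libraries lay at 4.92, 4.71 and 4.52, and the 3 OVX-HA libraries at 4.38, 5.57 and 4.68. In bulk RNA fewer megakaryocytes or platelets and less RNA per cell cannot be told apart.

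All 21 pairs of the 7 genes correlated across the 14 libraries (log2 CPM, Pearson r = 0.67 to 0.96, Spearman rho = 0.65 to 0.98). The largest adjusted p was 0.0081 for r and 0.014 for rho, by permutation test with 100000 resamples, two-sided, with Benjamini-Hochberg adjustment over the 21 pairs. How many pairs of other genes would pass was not counted, so these p-values do not set the 7 genes apart. The mean of the neutrophil markers had r = 0.82 with the mean of the 7 genes, and 0.94 over the 12 libraries with nervous tissue transcripts. Without the 2 libraries farthest from the median of the first gene of a pair r was 0.59 to 0.96, without both libraries low in nervous tissue transcripts it was 0.72 to 0.95, and on deviations from the group means it was 0.71 to 0.99. By Pearson r over all 14 libraries the pairs fell into blocks. Pf4, Itga2b, Treml1, Gp1bb and Gp9 correlated with each other at r = 0.87 to 0.96 (10 pairs), Ppbp and Gp1ba with each other at 0.93, and pairs that joined one gene of each block at 0.67 to 0.82 (10 pairs). The ranges overlapped otherwise. Pairs within the 5 genes and pairs across the blocks had Spearman rho of 0.763 to 0.978 and of 0.653 to 0.859. Over the 12 libraries with nervous tissue transcripts their r was 0.790 to 0.951 and 0.721 to 0.890. Without the 2 farthest libraries it was 0.711 to 0.957 and 0.588 to 0.803. This grouping was chosen after the values were seen.

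Ratios within a library varied less for some pairs than for others. Gp1ba to Ppbp stayed within 0.113 to 0.152 and Gp9 to Treml1 within 0.761 to 1.00, a 1.34-fold and a 1.32-fold range. Ppbp to Itga2b ran from 1.04 in OVX-HA replicate 2, 1.20 in OVX-PPA replicate 1, 1.23 in OVX-PBS replicate 1 and 1.33 in sham replicate 3 up to 1.98 in OVX-ZA replicate 1 and 2.33 in OVX-PPA replicate 2, a 2.24-fold range, and a 1.93-fold range over the 12 libraries with nervous tissue transcripts. The 4 libraries with the lowest ratio were also the 4 with the highest erythroid marker means, at 9.16, 8.23, 8.49 and 8.11 log2 CPM, against 7.36 to 7.97 in the other 10, and OVX-HA replicate 2 and OVX-PBS replicate 1 are among these 4. The log2 ratio had r = -0.68 with the erythroid marker mean over 14 libraries (rho = -0.44) and r = -0.33 over 12. With the neutrophil marker mean it had r = 0.40 over 14 (rho = 0.50) and 0.67 over 12. These are descriptions, and the part of either marker list in the ratio was not tested.

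**Figure D3:**
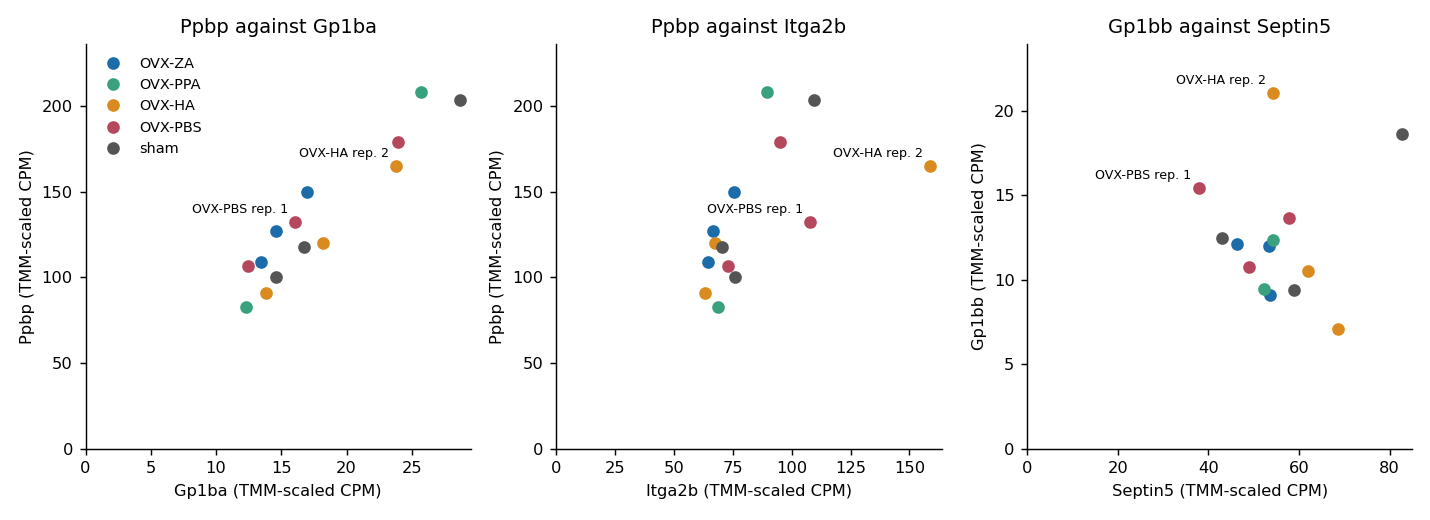
Pairs of genes in TMM-scaled CPM on linear axes from 0, with 1 point per library coloured by group and the libraries low in nervous tissue transcripts named. Ppbp follows Gp1ba closely and Itga2b less so, with OVX-HA replicate 2 off to the right, and Gp1bb shows no rise with Septin5.

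Which other genes shared the pattern? Over 14 libraries the closest to the mean z-score of the 7 genes, among 15826 genes of at least 2 mean CPM, were Tbxas1 (r = 0.98), Mpig6b (0.98), F5 (0.97), Cdk6 (0.96), Alox12 (0.96), Fermt3 (0.96), Gp5 (0.96) and Muc13 (0.96). Tbxas1 is thromboxane synthase, Mpig6b an inhibitory receptor of platelets, F5 coagulation factor V, Alox12 the platelet lipoxygenase and Fermt3 the kindlin that activates platelet integrins. Cdk6 is a kinase of the cell cycle and Muc13 a membrane mucin. Over the 12 libraries with nervous tissue transcripts Tbxas1 was again the closest, and the only one of these 8 among the closest 8. Of the 36 genes of the wider list, 7 were among the 20 closest and 19 had r over 0.8, as 470 of the 15826 genes did. By role the median r was 0.90 in signalling genes, 0.89 in surface receptors, 0.88 in granule genes, 0.70 in 8 transcription factors and 0.63 in 3 cytoskeletal genes. Over the 12 libraries with nervous tissue transcripts it was 0.90 in signalling genes, granule genes and cytoskeletal genes, 0.87 in surface receptors and 0.45 in transcription factors. Over all 14, P2ry12 (-0.06), Gng11 (-0.18), Meis1 (-0.33) and Thpo (-0.60) had r below 0. Over the 12, P2ry12 had r = 0.32, and Gng11 (-0.45), Meis1 (-0.42), Thpo (-0.42) and Myl9 (-0.24) were below 0. These values are descriptions of the same 14 libraries, which share depth and tissue composition.

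Marker lists of other cells moved with the 7 genes to different degrees, given here for mean log2 CPM over 14 libraries and then over the 12 with nervous tissue transcripts. The 8 neutrophil markers had r = 0.82 and 0.94, the 10 erythroid markers 0.63 and 0.31, the 6 B cell markers 0.54 and 0.43, the 5 macrophage markers 0.30 and 0.62, the 6 endothelial markers -0.41 and -0.61 and the 5 muscle markers -0.47 and -0.52. The 5 osteoblast markers had 0.63 and 0.36, the 5 mast cell and basophil markers 0.64 and 0.72, the 5 osteoclast markers 0.16 and 0.21, and the 4 lymph node markers 0.04 and 0.08. The lymph node list alone had markers at 0 in any library, 2 of its 4. The 5 nervous system markers had r = -0.11 over the 12, and no r is given over all 14, since the 2 libraries low in these markers form a cluster of their own. Both of those libraries, OVX-HA replicate 2 and OVX-PBS replicate 1, were among the 5 with the highest mean of the 7 genes. Summed neutrophil markers ran from 2442 to 3075 CPM in OVX-ZA, 2018 to 5358 in OVX-PPA, 2429 to 4411 in OVX-HA, 2562 to 4819 in OVX-PBS and 2539 to 5755 in sham. Summed muscle markers ran from 32755 to 49329 CPM in OVX-ZA, 29915 to 32255 in OVX-PPA, 28300 to 47825 in OVX-HA, 29049 to 44834 in OVX-PBS and 21372 to 42441 in sham. Neutrophil markers were highest in the 4 libraries in which all 7 genes were above their mean. The part of such differences in tissue composition in the levels of the 7 genes was not tested.

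**Figure D4:**
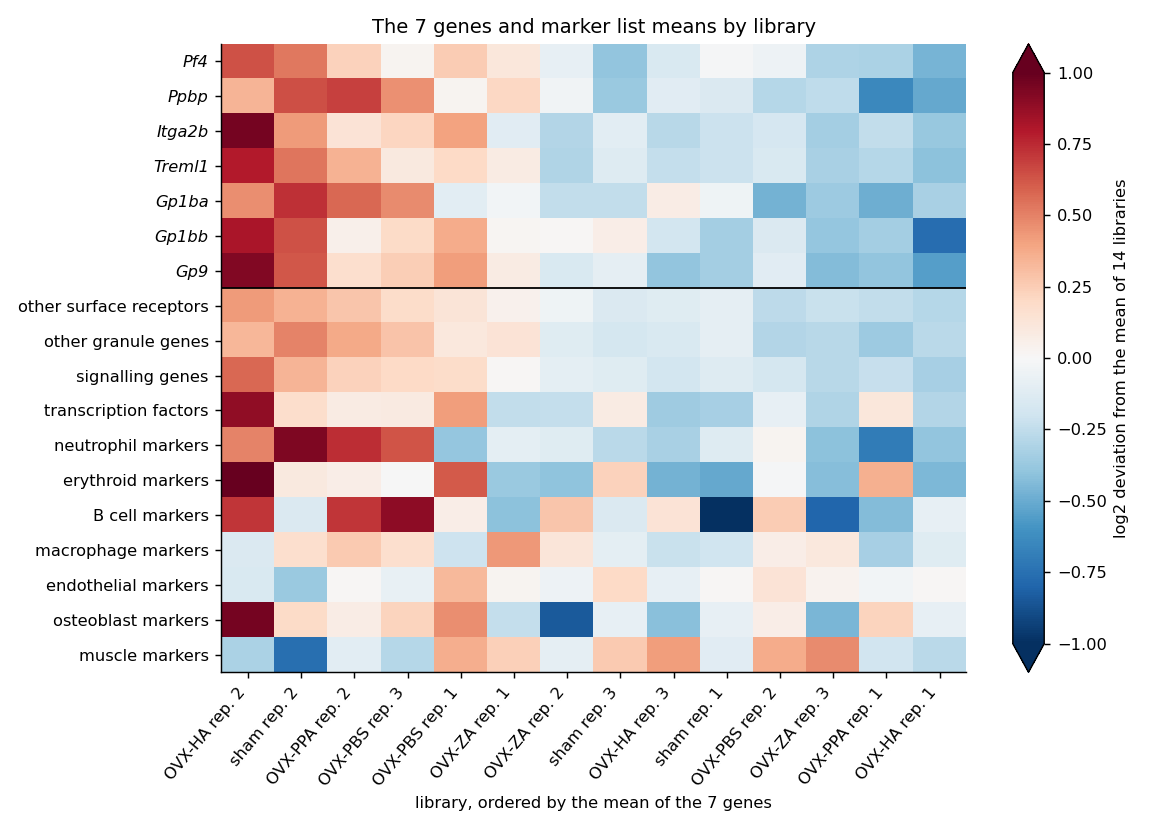
Log2 deviation from the mean of 14 libraries (colour, capped at ±1) of the 7 genes (above the line) and of the means of other megakaryocyte gene lists and of marker lists (below it), with libraries ordered from left to right by the mean of the 7 genes. The 4 libraries on the left are above average in all 7 genes, and neutrophil markers are high in the same 4.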

How the data were processed

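The input was the table of estimated counts per gene symbol and library that the authors deposited, which is not normalized; 20.7% of its values were not whole within 0.01. Their second table, TMM-scaled log2 values that a TMM scaling of the counts matched within 0.0055, was not used. The submitters' processing notes name mm10, STAR 2.7.8a, Bowtie2 2.2.5, Partek and CASAVA 1.8.1 without their roles. Which tool counted, with which annotation and strand setting, is not stated there. Reads were 75 nt single-end from a stranded mRNA kit, per the labels' protocols.

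Counts were rounded, filtered by filterByExpr (21761 genes kept) and TMM-scaled. One edgeR 4.0.16 quasi-likelihood fit (R 4.3.3) held 14 libraries with a mean per group and 9 residual degrees of freedom. The 10 comparisons were each adjusted by Benjamini-Hochberg at an FDR of 0.05. Alternatives were DESeq2 1.42.0, other scalings, filters, sample sets and a replicate block. Replicate numbers did not pair libraries. Coordinates and exon lengths are from GENCODE (mm10), promoters from RefSeq. Scripts were tested on simulated data. The members and gene lists were chosen with earlier results of these data known. Of the wider list the text names at most the 3 smallest p per direction (Gp5, Itgb3 and the uncorrelated genes were named after their values were seen), and of the closest genes the 8 highest correlations.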

Additional observations from a re-analysis of the deposited data

How the results depend on the processing

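The alternative runs are given for the 5 comparisons described one by one above, and the other 5 are not in these counts. In those described, no difference of the 7 genes passed the test under any alternative run. The smallest adjusted p there was 0.380 over the edgeR and DESeq2 runs. Of 441 alternative values of the 35 differences, 364 kept their direction and 77 turned, and the cause was not tested. Without both libraries low in nervous system transcripts the log2 differences that turned were in OVX-HA over OVX-PBS -0.221 for Gp1ba, -0.399 for Itga2b, -0.324 for Pf4, -0.335 for Treml1, and in OVX-HA over OVX-PPA -0.356 for Gp1bb, -0.433 for Gp9, -0.32 for Itga2b, -0.327 for Pf4, -0.432 for Treml1, and in OVX-PBS over sham -0.0178 for Gp9, 0.0528 for Ppbp, and in OVX-PPA over OVX-PBS 0.00319 for Pf4. With no scaling factor they were in OVX-HA over OVX-PBS 0.00971 for Gp1bb, 0.0129 for Gp9, and in OVX-PBS over sham -0.026 for Gp9. Replicate numbers did not pair the libraries, since 8 of 26 same-numbered pairs correlated above 0.1 (r = -0.55 to 0.43) and 5 of 14 libraries correlated best with their own number. With the replicate block the differences that turned were in OVX-HA over OVX-PPA 0.00466 for Gp1ba, and in OVX-PBS over sham 0.0579 for Gp1bb, 0.0556 for Pf4, 0.0679 for Ppbp, 0.00796 for Treml1, and in OVX-HA over OVX-PBS -0.034 for Itga2b, -0.0651 for Pf4, and in OVX-PPA over OVX-PBS -0.0976 for Ppbp, -0.129 for Treml1.

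Leaving out one replicate at a time gave ranges that crossed 0 for these log2 differences. In OVX-HA over OVX-PBS they were -0.147 to 0.419 for Gp1ba, -0.602 to 0.254 for Gp1bb, -0.677 to 0.219 for Gp9, -0.5 to 0.304 for Itga2b, -0.39 to 0.214 for Pf4, -0.416 to 0.101 for Ppbp, -0.385 to 0.317 for Treml1. In OVX-HA over OVX-PPA they were -0.466 to 0.589 for Gp1ba, -0.361 to 0.497 for Gp1bb, -0.439 to 0.545 for Gp9, -0.327 to 0.485 for Itga2b, -0.334 to 0.391 for Pf4, -0.737 to 0.587 for Ppbp, -0.438 to 0.435 for Treml1. In OVX-PBS over sham they were -0.533 to 0.146 for Gp1ba, -0.23 to 0.251 for Gp1bb, -0.112 to 0.383 for Gp9, -0.023 to 0.303 for Itga2b, -0.198 to 0.251 for Pf4, -0.275 to 0.336 for Ppbp, -0.193 to 0.201 for Treml1. In OVX-PPA over OVX-PBS they were -0.512 to 0.556 for Gp1ba, -0.392 to 0.152 for Pf4, -0.75 to 0.585 for Ppbp, -0.339 to 0.293 for Treml1. In OVX-ZA over OVX-PBS they were -0.422 to 0.159 for Gp1ba, -0.274 to 0.195 for Ppbp.

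Over all genes, calls were few and moved with the tool. DESeq2 called 32 genes in OVX-ZA over OVX-PBS, against 0 by edgeR, 29 in OVX-ZA over OVX-HA, against 1, 15 in OVX-ZA over sham and 14 in OVX-ZA over OVX-PPA, against 0 each, and 1 in OVX-PBS over sham, against 0. Without a filter on low counts the numbers were 3 in OVX-ZA over OVX-PBS, 8 in OVX-ZA over OVX-HA and 2 in OVX-ZA over sham. Without both libraries low in nervous system transcripts they were 6, 4 and 2, and 2 in OVX-ZA over OVX-PPA. With only the 2 groups compared 1 gene was called in OVX-ZA over OVX-PBS and 0 in OVX-ZA over OVX-HA, where no scaling factor and the replicate block also gave 0. Leaving out one replicate gave 0 to 1 in OVX-ZA over OVX-PBS and 0 to 4 in OVX-ZA over OVX-HA. With 2 or 3 libraries a group, the 95% intervals above set what could be seen.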
